A study of Mus musculus with 16 samples.

Results

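Of the 10 genes described, Lrp5 and Lrp6 encode Wnt coreceptors, Lrp4 a relative of them, and Ror1, Ror2 and Ryk tyrosine kinase-like Wnt receptors. Kremen1 and Kremen2 encode Dkk receptors, and Porcn and Wls encode proteins that Wnt-producing cells need to secrete the ligand. The 10 genes were taken by symbol from the deposited table, where each had 1 row, out of 30286 distinct symbols. Messenger RNA had been measured in the facial prominences, the buds that grow and fuse into the face. The embryos were C57BL/6 mice of embryonic day 12. The 4 groups were ectoderm of Esrp1-/- embryos (KO ectoderm), ectoderm of wild-type embryos (WT ectoderm), mesenchyme of Esrp1-/- embryos (KO mesenchyme) and mesenchyme of wild-type embryos (WT mesenchyme). Esrp1 encodes an RNA-binding protein that controls splicing in epithelia. Each group had 4 libraries, each from a pool of 6 to 7 embryos whose layers were separated surgically. Which part of Esrp1 the allele lacks is not in the labels.

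The table gives 1 value per gene and group in TPM, a unit of transcript abundance that allows for length, so that levels of different genes can be set side by side. Over the symbols used, the columns had unequal sums. These were 953741 TPM in KO ectoderm, 916266 TPM in WT ectoderm, 975762 TPM in KO mesenchyme and 967303 TPM in WT mesenchyme. The main ratios were taken without rescaling the columns to a common sum. No spread between libraries can be had from the table. No difference below was tested, none has an error, and "higher" and "lower" describe the deposited values. The depth behind each value is unknown. A log2 ratio was taken between values of TPM + 1, which understates differences of genes with low values. A gene was measured in a comparison if its mean over the groups compared reached 1 TPM. It was counted as higher or lower from a 1.5-fold difference for KO against WT, and from a 2-fold difference for ectoderm against mesenchyme.

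Wnt proteins are lipid-modified in the endoplasmic reticulum by the acyltransferase Porcn and carried to the cell surface by the transmembrane protein Wls. On the receiving cell, Frizzled proteins with Lrp5 or Lrp6 start canonical signalling through beta-catenin, while Ror1, Ror2 and Ryk serve beta-catenin-independent responses to ligands such as Wnt5a. Kremen proteins bind the antagonist Dkk1 and help to take Lrp6 off the surface, and Lrp4 binds the antagonists Sost and Sostdc1. In mice, loss of Lrp6 can cause cleft lip and palate, and loss of Ror2 shortens the face and limbs.

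Esrp1 was at 62.9 TPM in KO ectoderm, against 170 TPM in WT ectoderm (log2 ratio -1.42), and at 1.0 TPM in KO and 1.01 TPM in WT mesenchyme, so it checks the labels of the ectoderm only. The markers followed the labelled layers. The summed level of 13 surface ectoderm markers was 2693 TPM in KO ectoderm and 3180 TPM in WT ectoderm, against 28.3 TPM in KO mesenchyme and 27.5 TPM in WT mesenchyme. That of 22 facial mesenchyme markers was 586 TPM in KO ectoderm and 239 TPM in WT ectoderm, against 2236 TPM in KO mesenchyme and 3415 TPM in WT mesenchyme, and none of these markers was at 0 in any group. In bulk tissue, fewer cells of a type and less RNA per cell cannot be told apart.

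All 10 genes were above 1 TPM in both layers of the wild-type face, and the layers differed in the levels of some. Kremen2, Wls and Lrp4 were at least 2-fold higher in WT ectoderm, and Ror1 and Ror2 at least 2-fold lower, relative to WT mesenchyme. Of all 14242 genes measured, 6.88% were that much higher and 12.1% that much lower in WT ectoderm (8.17% and 9.47% after quantile normalization). Lrp4 (1.05) and Kremen1 (0.96) lay close to 2-fold. With a pseudocount of 5 TPM Lrp4 was at 0.89, and Kremen1 was past 2-fold, at 1.05 to 1.13, under quantile normalization, upper-quartile scaling, rescaling without mitochondrial genes and both trend corrections described below. The median log2 ratio of the 10 genes was 0.13, and that of all genes was -0.15. Between the KO layers 5 of the 10 were higher in ectoderm (Lrp4, Lrp5, Kremen1, Kremen2 and Wls) and 1, Ror1, was lower. Of 14411 genes 9.06% were higher and 6.88% lower there. With the GC trend subtracted 3 of the 10 were higher and 2 lower, beside 7.65% and 7.25% of 14294 genes. Lrp4 (0.986) and Lrp5 (0.997) then fell just short of 2-fold and Ror2 (-1.26) passed it. With a pseudocount of 5 TPM Lrp4 (0.96) and Ror1 (-0.83) fell short. The members' median log2 ratio there was 0.85, against 0.00 for all genes.

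Kremen2 (chromosome 17, 23741197 to 23745833, minus strand, GRCm38) had the widest range of the 10. Its level was 72.4 TPM in KO ectoderm and 87.0 TPM in WT ectoderm, against 2.20 TPM in KO mesenchyme and 3.57 TPM in WT mesenchyme. The log2 ratio of ectoderm over mesenchyme was 4.52 in KO and 4.27 in WT, and 67 of the 14242 genes had a larger ratio in WT. An antisense gene, 9530082P21Rik, shares 200 exonic bases with Kremen2 and was not among the rows used here, and whether reads were counted by strand is not given in the sources used here. The paralog of Kremen2, Kremen1 (chromosome 11, 5191552 to 5261558, minus strand) was less uneven, at 54.3 TPM in KO ectoderm and 51.6 TPM in WT ectoderm, against 14.1 TPM in KO mesenchyme and 26.0 TPM in WT mesenchyme. Kremen1 made up 42.8% of the summed Kremen level in KO ectoderm and 37.2% in WT ectoderm, against 86.5% in KO mesenchyme and 87.9% in WT mesenchyme. The ectoderm thus held both Dkk receptors and the mesenchyme mostly Kremen1. Dkk1 itself, their ligand, was at 3.30 TPM in KO ectoderm and 1.56 TPM in WT ectoderm, against 22.0 TPM in KO mesenchyme and 24.9 TPM in WT mesenchyme.

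Ror2 and Ror1 had the opposite distribution. Ror2 (chromosome 13, 53109312 to 53286124, minus strand) was at 9.26 TPM in KO ectoderm and 5.80 TPM in WT ectoderm, against 18.25 TPM in KO mesenchyme and 41.3 TPM in WT mesenchyme. Ror1 (chromosome 4, 100095791 to 100444765, plus strand) was at 5.79 TPM in KO ectoderm and 4.43 TPM in WT ectoderm, against 14.2 TPM in KO mesenchyme and 21.2 TPM in WT mesenchyme. The log2 ratio of WT ectoderm over WT mesenchyme was -2.64 for Ror2 and -2.03 for Ror1. Wnt5a, a ligand of both receptors, was also mostly mesenchymal, at 57.3 TPM in KO ectoderm and 33.7 TPM in WT ectoderm, against 141 TPM in KO mesenchyme and 167 TPM in WT mesenchyme. The third receptor of this kind, Ryk (chromosome 9, 102834917 to 102908305, plus strand), was abundant in both layers. It was at 98.6 TPM in KO ectoderm and 109 TPM in WT ectoderm, against 67.3 TPM in KO mesenchyme and 82.2 TPM in WT mesenchyme. The level of Ryk was 10.6 times that of Ror2 in KO ectoderm and 18.8 times in WT ectoderm, against 3.69 times in KO mesenchyme and 1.99 times in WT mesenchyme.

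**Figure D1:**
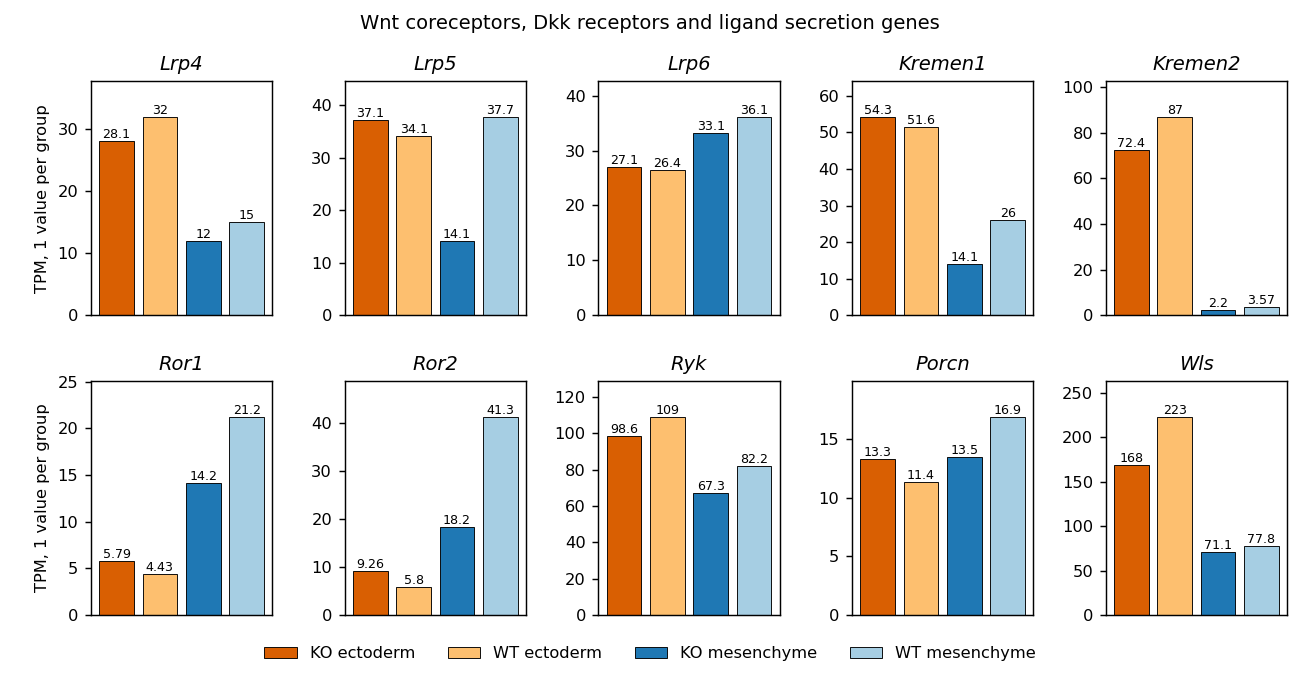
Level of each of the 10 genes in TPM (vertical axes, linear from 0, scaled separately per gene) in KO ectoderm, WT ectoderm, KO mesenchyme and WT mesenchyme, 1 deposited value per bar and no error. Kremen2 spans 2.20 to 87.0 TPM, Lrp5 is at 34.1 to 37.7 TPM in every group except KO mesenchyme (14.1 TPM), and Ror1 and Ror2 are highest in WT mesenchyme.

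The coreceptors of canonical signalling were present at like levels in both wild-type layers. Lrp5 (chromosome 19, 3584828 to 3686564, minus strand) was at 37.1 TPM in KO ectoderm and 34.1 TPM in WT ectoderm, against 14.1 TPM in KO mesenchyme and 37.7 TPM in WT mesenchyme. Lrp6 (chromosome 6, 134446476 to 134566965, minus strand) was at 27.1 TPM in KO ectoderm and 26.4 TPM in WT ectoderm, against 33.15 TPM in KO mesenchyme and 36.1 TPM in WT mesenchyme. KO mesenchyme was thus low for Lrp5 and not for Lrp6. Lrp4 (chromosome 2, 91457511 to 91513779, plus strand) was more ectodermal, at 28.1 TPM in KO ectoderm and 32.0 TPM in WT ectoderm, against 12.0 TPM in KO mesenchyme and 15.0 TPM in WT mesenchyme. Sostdc1, an antagonist that binds Lrp4, Lrp5 and Lrp6, was at 76.7 TPM in KO ectoderm and 100 TPM in WT ectoderm, against 18.4 TPM in KO mesenchyme and 23.9 TPM in WT mesenchyme. Sost was below 1 TPM in every group.

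Of the secretion genes, Wls was the more uneven. Wls (chromosome 3, 159839672 to 159938664, plus strand) was at 168 TPM in KO ectoderm and 223 TPM in WT ectoderm, against 71.1 TPM in KO mesenchyme and 77.8 TPM in WT mesenchyme. In WT ectoderm 96.1% of the symbols at 1 TPM or more were lower than Wls, and in WT mesenchyme 84.1% were. Porcn (chromosome X, 8193848 to 8206525, minus strand) was at 13.3 TPM in KO ectoderm and 11.4 TPM in WT ectoderm, against 13.5 TPM in KO mesenchyme and 16.9 TPM in WT mesenchyme. The acyltransferase was thus the lower of the pair in every group, and Wls was the highest of the 10 genes in every group except WT mesenchyme, where Ryk was. The lowest was Ror1 in both ectoderm groups and Kremen2 in both mesenchyme groups. Wls stood at 12.6 times the level of Porcn in KO ectoderm and 19.6 times in WT ectoderm, against 5.27 times in KO mesenchyme and 4.60 times in WT mesenchyme.

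Promoter sequences, from RefSeq on GRCm38.p6, were matched by symbol for 5 of the 10 genes (Ror1, Ror2, Ryk, Kremen2 and Wls). Those of Kremen2, the most uneven gene between the layers, Ror2, a mesenchymal receptor gene, and Wls, an ectodermal secretion gene, are shown. Each runs from 250 bases before to 50 bases after the RefSeq start of the gene, in the direction of transcription. The RefSeq starts of Kremen2 and Wls differ by some bases from the gene coordinates printed above, which came from GENCODE M21. Ror2 lies at chr13:53286075-53286374 (minus strand), Kremen2 at chr17:23745780-23746079 (minus strand) and Wls at chr3:159839400-159839699 (plus strand). Capitals mark each match, on either strand, of the GC box GGGCGG and of the TCF/LEF core CTTTG, and no matches overlap.
Kremen2: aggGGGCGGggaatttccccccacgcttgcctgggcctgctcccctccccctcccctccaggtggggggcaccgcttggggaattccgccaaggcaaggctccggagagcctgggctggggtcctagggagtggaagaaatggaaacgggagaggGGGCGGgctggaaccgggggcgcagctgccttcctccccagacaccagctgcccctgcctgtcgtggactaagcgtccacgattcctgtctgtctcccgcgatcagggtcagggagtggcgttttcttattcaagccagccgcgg
Wls: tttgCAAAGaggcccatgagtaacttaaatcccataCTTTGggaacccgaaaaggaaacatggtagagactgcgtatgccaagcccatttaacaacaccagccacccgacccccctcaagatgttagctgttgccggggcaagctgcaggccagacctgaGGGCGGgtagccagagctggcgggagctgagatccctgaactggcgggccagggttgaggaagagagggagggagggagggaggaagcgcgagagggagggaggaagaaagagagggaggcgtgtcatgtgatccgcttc
Ror2: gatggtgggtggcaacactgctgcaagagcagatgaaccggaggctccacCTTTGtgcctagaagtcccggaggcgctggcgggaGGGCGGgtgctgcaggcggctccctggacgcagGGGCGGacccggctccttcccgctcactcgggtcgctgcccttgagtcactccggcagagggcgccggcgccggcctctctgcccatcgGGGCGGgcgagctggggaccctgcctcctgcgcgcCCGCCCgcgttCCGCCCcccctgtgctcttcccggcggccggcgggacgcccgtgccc
The GC box was matched 2 times in Kremen2, 1 time in Wls and 5 times in Ror2, and 35.6% of 32817 windows of the same length in the table held it. The TCF/LEF core, a short sequence bound by the nuclear factors of canonical Wnt signalling, was matched 0 times in Kremen2, 2 times in Wls and 1 time in Ror2, and 54.0% of all windows held it. GC content was 67.0% in Kremen2, 58.0% in Wls and 74.7% in Ror2, against a median of 52.7% over all windows. CG dinucleotides numbered 17 in Kremen2, 11 in Wls and 32 in Ror2, against a median of 7. These are matches of letters and say nothing of binding.

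In KO mesenchyme the coreceptor and receptor genes were lower to very different degrees. Lrp5, Ror2 and Kremen1 were lower than in WT mesenchyme by 1.5-fold or more and none of the 10 was higher, where 13.4% of 14233 genes were lower and 2.33% higher (5.37% lower and 6.16% higher after upper-quartile scaling). All 10 log2 ratios were below 0, from -1.36 to -0.12, with a median of -0.41 against -0.12 for all genes. Under quantile normalization and upper-quartile scaling those of Lrp6 and Wls were above 0, and after subtraction of the trend with transcript GC content described below that of Porcn was. Of all genes 63.4% had a ratio below 0. Summed over the 10 genes the level was 260 TPM in KO mesenchyme and 358 TPM in WT mesenchyme, against 514 TPM in KO ectoderm and 585 TPM in WT ectoderm.

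The canonical coreceptors differed from each other in KO mesenchyme. The log2 ratio of Lrp5 was -1.36, with 31 of 14233 genes lower, and that of Lrp6 was -0.12, level with the median gene. The summed level of Lrp5 and Lrp6 was 47.3 TPM in KO mesenchyme and 73.9 TPM in WT mesenchyme, against 64.2 TPM in KO ectoderm and 60.5 TPM in WT ectoderm. Lrp5 made up 29.8% of that sum in KO mesenchyme and 51.1% in WT mesenchyme. In ectoderm the share was 57.8% in KO and 56.4% in WT. Lrp4, at a log2 ratio of -0.30, was within 1.5-fold. Mesd, the chaperone that Lrp5 and Lrp6 need to leave the endoplasmic reticulum, was at 77.7 TPM in KO mesenchyme and 89.3 TPM in WT mesenchyme.

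Among the tyrosine kinase-like receptors, Ror2 had a log2 ratio of -1.14 (104 genes lower), Ror1 of -0.55 and Ryk of -0.28. The summed level of Ror1 and Ror2 was 32.4 TPM in KO mesenchyme and 62.5 TPM in WT mesenchyme. Ror1 made up 43.7% of it in KO mesenchyme and 34.0% in WT mesenchyme. Kremen1 was at a log2 ratio of -0.84 (621 genes lower). Kremen2, at 2.20 TPM in KO mesenchyme and 3.57 TPM in WT mesenchyme, had a log2 ratio of -0.51 and was the lowest of the 10 genes in both. Porcn (-0.30) and Wls (-0.13) were within 1.5-fold. From the deposited values Lrp6 and Wls were the closest of the 10 to their WT level.

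**Figure D2:**
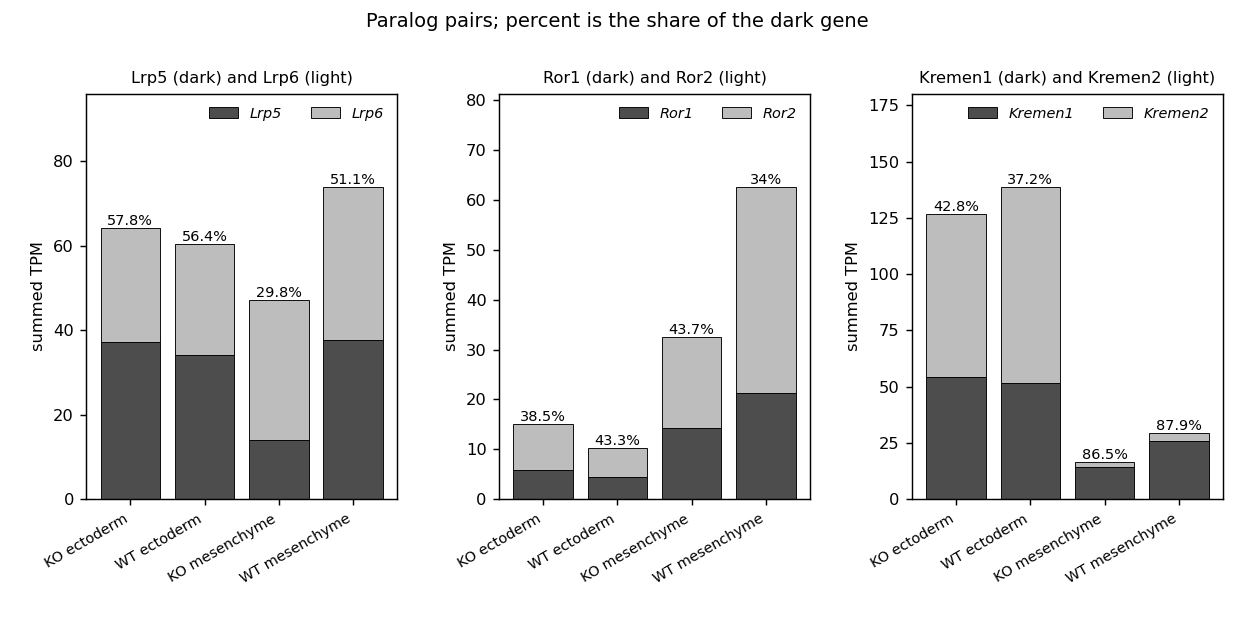
Summed TPM (vertical axes, from 0) of Lrp5 with Lrp6, Ror1 with Ror2 and Kremen1 with Kremen2 in the 4 groups, 1 deposited value per gene and group, with the share of the dark gene in percent above each bar. Lrp5 makes up 29.8% of its pair in KO mesenchyme and 51.1% in WT mesenchyme, and Kremen1 makes up over 86% of its pair in both mesenchyme groups.

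Transcript GC content moved with the KO ratio in mesenchyme over all genes. With genes of a mean level of 5 TPM or more ranked by the GC content of their longest coding transcript and cut into 5 equal groups, the median log2 ratio of KO over WT mesenchyme was 0.17 in the group lowest in GC, then -0.02, -0.18, -0.35 and -0.51. In ectoderm the medians were -0.00, 0.01, 0.02, 0.07 and 0.15. The 10 genes spanned 42.0% GC in Wls to 59.4% in Kremen2, and Lrp5 (58.6%), Ror2 (58.9%) and Kremen1 (55.1%) lay in the upper part. Lrp5 and Ror2 were still far down among genes of like GC, with 14 and 68 of the 2183 genes in the highest group below them. Kremen2 was at the median of that group and Porcn, at 57.4% GC, above it. Kremen1 had 146 of 2182 genes of its group below it, Ror1 (47.2% GC) had 51 of 2182, and Lrp4 (54.7% GC) had 1215 of 2182, so it was close to the middle. Wls had 195 of 2182 genes of the lowest group below it, although its own ratio was small.

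With the GC trend subtracted from every gene, the log2 ratios in mesenchyme were -0.98 for Lrp5, -0.74 for Ror2, -0.64 for Ror1 and -0.58 for Kremen1. Lrp5, Ror2 and Ror1 were then at least 1.5-fold lower and Kremen1 just short of it, where 5.73% of 14118 genes were lower and 2.65% higher. The ratios of the others were -0.42 for Wls, -0.33 for Ryk, -0.25 for Lrp6, -0.11 for Kremen2, -0.06 for Lrp4 and 0.04 for Porcn. Subtraction of a further trend with transcript length left Lrp5 (-0.87) and Ror2 (-0.65) at least 1.5-fold lower. Other values moved with the KO mesenchyme group as well. As deposited, 11 of 21 measured facial mesenchyme markers were lower by 1.5-fold or more, beside 13.4% of all genes. Of 9 neuron markers 5 were higher, beside 2.33% of all genes. The summed level of the neuron markers was 304 TPM in KO mesenchyme and 195 TPM in WT mesenchyme. Of 6 measured cartilage and bone markers 5 were lower, with a summed level over all 8 listed of 209 TPM in KO mesenchyme and 328 TPM in WT mesenchyme. With the GC trend subtracted 8 of the 21 facial mesenchyme and 3 of the 6 cartilage and bone markers were lower. Of the 9 neuron markers 7 were then higher. No neuron, cartilage or bone marker was at 0. The part of these cell types in the ratios of the 10 genes was not tested.

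**Figure D3:**
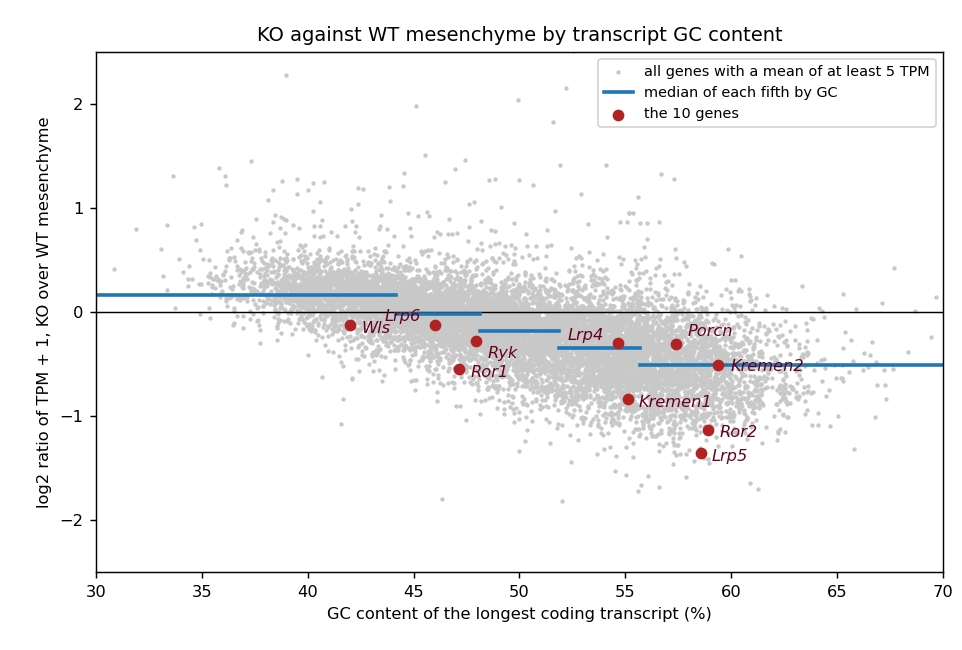
Log2 ratio of TPM + 1 of KO over WT mesenchyme (vertical axis) against the GC content of the longest coding transcript in percent (horizontal axis), for 10911 genes of a mean level of 5 TPM or more in grey, 15 of them outside the axes. Blue lines are the medians of 5 equal groups by GC (0.17 to -0.51), and the 10 genes are in red, Kremen2 included although its mean is below 5 TPM. Lrp5, Ror2, Ror1 and Kremen1 lie well under the line of their group, while Kremen2, Lrp4 and Porcn lie on or above it.

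In KO ectoderm 9 of the 10 genes were within 1.5-fold of WT ectoderm. The exception was Ror2, which was higher (log2 ratio 0.59) and, at 1.51-fold, only just past the limit. Of 13935 genes 4.92% were higher by 1.5-fold or more and 0.452% lower by as much (3.32% and 0.931% after quantile normalization). The members' median log2 ratio was 0.05, as was that of all genes. Ror1 had the next highest ratio, 0.32. Both are mesenchymal genes, and mesenchyme markers were higher in KO ectoderm. Of 20 measured facial mesenchyme markers 18 were higher by 1.5-fold or more, as were 9 of 9 endothelial, 6 of 6 muscle, 5 of 8 neuron and 3 of 6 macrophage markers, while 1 of 8 red blood cell markers was. No marker of these lists was at 0 in either group. Their summed levels in KO and WT ectoderm were 34.8 and 9.43 TPM for endothelium, 61.9 and 15.2 TPM for muscle, 124 and 96.5 TPM for neurons, 22.1 and 13.2 TPM for macrophages and 4731 and 4477 TPM for red blood cells. The gain of Ror2 equalled 9.75% of its excess in WT mesenchyme over WT ectoderm, and the median gain of 19 facial mesenchyme markers was 11.0% (quartiles 7.99% and 13.3%). With that median share of WT mesenchyme subtracted from KO ectoderm, the log2 ratio was -0.11 for Ror2 and -0.15 for Ror1. KO mesenchyme, where Ror2 was at 18.25 TPM against 41.3 TPM in WT mesenchyme, was not used for the share. The same subtraction left 5 of the 8 red blood cell markers lower by 1.5-fold or more, so 1 share could not stand for every cell type. The part of mesenchyme in the ectoderm ratios of Ror2 and Ror1 was not tested.

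From the deposited values Wls had the lowest ratio of the 10 in KO ectoderm, at 168 TPM against 223 TPM in WT ectoderm (log2 ratio -0.40, within 1.5-fold). Of the 13935 genes 177 had a lower ratio. The value was -0.36 after subtraction of the GC trend and -0.31 after subtraction of the mesenchyme share. Kremen2 was next, at 72.4 TPM in KO ectoderm against 87.0 TPM in WT ectoderm (-0.26, with 428 genes lower), then Lrp4 (-0.18) and Ryk (-0.15). After subtraction of the mesenchyme share these were at -0.10, -0.11 and -0.12. Beside them, 1 of 13 surface ectoderm markers was lower by 1.5-fold or more. The median log2 ratio of that list was -0.14, or 0.03 after the same subtraction. Its part in these ratios was not tested. Lrp5 (0.12), Lrp6 (0.04), Kremen1 (0.07) and Porcn (0.21) had ratios above 0, and that of Lrp6 was below 0 under quantile normalization, upper-quartile scaling, rescaling without mitochondrial genes and subtraction of the mesenchyme share.

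**Figure D4:**
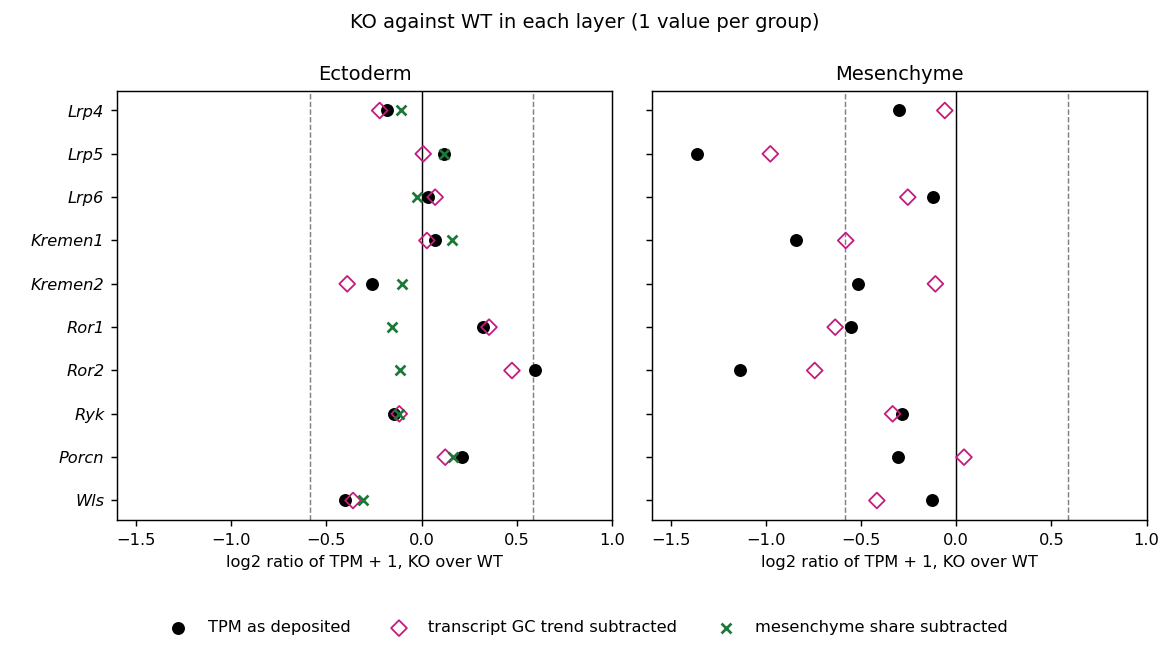
Log2 ratio of TPM + 1, KO over WT (horizontal axes), of the 10 genes in ectoderm (left) and mesenchyme (right), from the deposited TPM (black), after subtraction of the transcript GC trend (open diamonds) and, in ectoderm, after subtraction of the mesenchyme share (crosses). Dashed lines mark 1.5-fold. In ectoderm Ror2 (0.59) passes the line only for the deposited values, and in mesenchyme Lrp5 (-1.36) and Ror2 (-1.14) pass it with and without the GC trend.

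The KO effects of the layers were set against each other as the ectoderm log2 ratio minus the mesenchyme log2 ratio. Ror2 (1.73) and Lrp5 (1.48) were at least 2-fold apart, as were 7.34% of 14329 genes in this direction and 0.593% in the other (3.34% and 1.25% after quantile normalization). For Lrp5 the ectoderm part was 0.12 and the mesenchyme part -1.36, so nearly all of the difference lay in mesenchyme. Kremen1 (0.91) and Ror1 (0.87) followed, and the remaining values ran from -0.27 (Wls) to 0.52 (Porcn). The median of the 10 was 0.38 and that of all genes 0.19. With the GC trend subtracted Ror2 was at 1.23 and Lrp5 at 1.002. After GC and length trends were subtracted Lrp5 was at 0.92, within 2-fold, and with the mesenchyme share subtracted Ror2 was at 1.02 and Lrp5 at 1.48.

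Other genes of the pathway and relatives of its receptors were taken from lists of 106 genes. In KO mesenchyme 26 of 85 measured were at least 1.5-fold lower and 1 was higher, beside 13.4% lower and 2.33% higher over all genes. Their median log2 ratio was -0.37, against -0.12 for all genes. Lower were 4 of 9 Frizzled receptors (1 was higher), 2 of 7 ligands, 2 of 11 secreted antagonists and Lrp ligands, 0 of 7 genes of the R-spondin system, 1 of 9 planar polarity genes, 5 of 14 intracellular components and 8 of 10 feedback genes and nuclear factors. Ptk7, a pseudokinase receptor of planar polarity and a partner of Ror2, was at 48.1 TPM in KO mesenchyme and 108 TPM in WT mesenchyme (-1.15). Fzd10 was at 7.88 TPM in KO mesenchyme and 16.1 TPM in WT mesenchyme (-0.95), and Axin1, the scaffold that binds the tail of Lrp6, at 27.4 TPM in KO mesenchyme and 49.7 TPM in WT mesenchyme (-0.84). Agrn, a ligand of Lrp4 at the neuromuscular junction, was at 72.4 TPM in KO mesenchyme and 135 TPM in WT mesenchyme (-0.89). With the GC trend subtracted 14 of 85 were lower and 1 higher, beside 5.73% and 2.65% of all genes. Ptk7 (-0.75) and Fzd10 (-0.63) were then still lower by 1.5-fold or more, while Axin1 (-0.52) and Agrn (-0.54) were not. Of the lists, 2 of 9 Frizzled receptors, 7 of 10 feedback genes and nuclear factors and 0 of 14 intracellular components were lower with this correction.

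Among these 26 were 4 of 9 measured relatives of the LDL receptor. Lrp1, an endocytic receptor, was at 47.5 TPM in KO mesenchyme and 144 TPM in WT mesenchyme (-1.58), and Lrp10 was at 5.68 TPM in KO mesenchyme and 13.3 TPM in WT mesenchyme (-1.10). With the GC trend subtracted 2 of the 9 were lower. Of 9 genes of ligand trafficking and of the Lrp chaperone none was 1.5-fold apart in mesenchyme, with a median of 0.00, and none in ectoderm, with a median of 0.03. After subtraction of the GC trend the median in mesenchyme was -0.25, with 9 of 9 below 0, against -0.12 for all genes. Their largest ratio in mesenchyme was that of Snx3, a sorting nexin that helps to recycle Wls, at 89.9 TPM in KO mesenchyme and 124 TPM in WT mesenchyme (-0.45).

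In KO ectoderm 11 of 93 measured pathway genes were higher by 1.5-fold or more and 2 lower, beside 4.92% and 0.452% of all genes. The median was 0.06, against 0.05 for all genes. Subtraction of the GC trend gave 11 higher and 5 lower, beside 4.56% and 0.506% of all genes. After subtraction of the mesenchyme share 3 of 91 were higher and 2 lower, beside 2.6% and 0.723% of all genes. Higher were 4 of 11 secreted antagonists and Lrp ligands, 3 of 8 genes of the R-spondin system, 2 of 14 ligands, 1 of 7 planar polarity genes and 1 of 11 feedback genes. No Frizzled receptor (of 9), LDL receptor relative (of 10) or intracellular component (of 14) was 1.5-fold apart. Frzb, a secreted antagonist, was at 9.16 TPM in KO ectoderm and 1.64 TPM in WT ectoderm (1.94), and Prickle1, a planar polarity gene, at 11.1 TPM in KO ectoderm and 5.48 TPM in WT ectoderm (0.90). Both were higher in WT mesenchyme, Frzb at 72.6 TPM and Prickle1 at 40.3 TPM. After subtraction of the mesenchyme share 0 of 7 planar polarity genes and 2 of 11 secreted antagonists and Lrp ligands were higher by 1.5-fold or more. The part of mesenchyme in the ratios of Frzb and Prickle1 was not tested. From the deposited values both pathway genes lower by 1.5-fold or more in KO ectoderm were ligands. Mesd was at 65.1 TPM in KO ectoderm and 50.5 TPM in WT ectoderm (0.36).

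The pathway gene most like each member over the 4 groups was found by the root mean square distance between log2 values of TPM + 1, each centred on its own mean, among 96 candidates. With 4 points per gene this is a description of these columns. Ryk was nearest to Ctnnb1, which encodes beta-catenin (distance 0.04), Porcn to Snx3 (0.08), Wls to Lgr4, a receptor of R-spondins (0.09), and Lrp5 to Lrp10 (0.09). Ror1 was nearest to Prickle2 (0.10), Lrp4 to Fzd5 (0.11), Lrp6 to Btrc (0.135), Kremen1 to Fzd10 (0.14), Kremen2 to Rnf43 (0.15) and Ror2 to Nkd1 (0.19). Fzd5 (0.68 to 2.66 TPM) and Prickle2 (1.33 to 6.95 TPM) had low levels, so their distances depend on the pseudocount of 1 TPM. Rnf43, a ligase that removes Frizzled and Lrp6 from the surface, shared the restriction of Kremen2, at 50.7 TPM in KO ectoderm and 54.0 TPM in WT ectoderm, against 0.87 TPM in KO mesenchyme and 1.41 TPM in WT mesenchyme. Lgr4 was at 49.9 TPM in KO ectoderm and 60.1 TPM in WT ectoderm, and in mesenchyme at 18.6 TPM in KO and 18.8 TPM in WT.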

How the data were processed

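RNA-seq libraries of 4 groups (16 libraries, 4 per group) were summarised by the authors in 1 deposited table of TPM with 1 column per group, 30391 rows and 30286 distinct symbols. Per the submitters' processing notes the tools included STAR 2.5.2a and kallisto 0.43.0, and the build was mm10. Not given in the sources used here are the tool behind the TPM, the annotation and the way libraries were combined. The depth is unknown, and TPM keep no record of it. No test of any kind was run, since each group has 1 value.

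Of 103 symbols in several rows, none of them a member, only the row of highest sum was used. Log2 ratios used a pseudocount of 1 TPM and a mean of 1 TPM or more over the groups compared. GC content and length came from the longest coding transcript in GENCODE M21 (GRCm38, 99.2% of genes measured). Trends were fitted by lowess (statsmodels 0.14.6, fraction 0.3) on genes of a mean level of 5 TPM or more, subtracted, and the median added back. The mesenchyme share was the median, over facial mesenchyme markers at least 5-fold higher in WT mesenchyme, of the excess of KO over WT ectoderm, as a percentage of the excess of WT mesenchyme over WT ectoderm. Counting and trend removal were tested on simulated data. Named genes are the 10 members, the nearest gene of each in the pathway lists, the 2 largest absolute log2 ratios of each pathway list per KO comparison (examples of these are printed), and, named after values were seen as known partners of members, Dkk1, Wnt5a, Sost, Sostdc1, and Mesd in mesenchyme. Members and lists were chosen with earlier results of these data known.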

Additional observations from a re-analysis of the deposited data

Results flagged for a closer look

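Lrp5 and Ror2 had KO ratios of opposite sign in the 2 layers and at least 2-fold apart. For Lrp5 the log2 ratio was 0.12 in ectoderm and -1.36 in mesenchyme, a difference of 1.48. For Ror2 it was 0.59 in ectoderm and -1.14 in mesenchyme, a difference of 1.73. Neither difference was tested, since each group has 1 value. With the share of WT mesenchyme subtracted the ectoderm ratio of Ror2 was -0.11, no longer opposite in sign, while that of Lrp5 was 0.12. KO mesenchyme, where Ror2 was at 18.25 TPM against 41.3 TPM in WT mesenchyme, was not used for this share. With the GC trend subtracted the ectoderm ratio of Lrp5 was 0.01, against a median of 0.05 over all genes.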

How the results depend on the processing

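Of 53 counts of members apart under an alternative, 45 were within 1.5 times the reported count. The exceptions were in ectoderm, where the count of 1 (Ror2) became 0 with a pseudocount of 5 TPM, quantile normalization, upper-quartile scaling, rescaling without mitochondrial genes, either trend correction and subtraction of the mesenchyme share, and in the difference between the KO effects, where 2 became 1 (Ror2; Lrp5 was at 0.92) after GC and length trends were subtracted. The ratio of Ror2 in KO ectoderm, 0.59 as deposited, was 0.40 with a pseudocount of 5 TPM and -0.11, of opposite sign, after subtraction of the mesenchyme share. Of 529 values of single members, 500 kept their direction or stayed within the fold used, 16 no longer reached it, 12 newly reached it and 1 reversed. In KO mesenchyme Lrp5 and Ror2 stayed at least 1.5-fold lower under every alternative run there. Kremen1 did not under either trend correction, Kremen2 reached it with a pseudocount of 0.1 TPM and Ror1 with the GC trend subtracted. Upper-quartile scaling moved the median of all genes by 0.20 in mesenchyme and by -0.05 in ectoderm. No paired analysis was possible because the table has 1 column per group, and for the same reason no library could be left out. The unknown depth limits the low values most, here those of Kremen2 in mesenchyme and Ror1 in ectoderm.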
